A study of Mus musculus with 6 samples.

Results

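The regions described here are the chromatin accessibility peaks of mouse chromosomes 3 and 18 in the tumor glia of a Foxr2 p53LOF brain tumor. They are 9823 of the 112924 peaks called in that library, 6041 on chromosome 3 and 3782 on chromosome 18. Their counts were summed per chromosome and in bins of 10 Mb, divided by all counts on autosomal peaks, and compared between tumor glia and host nuclei of the same library. Tumor glia were nuclei with at least 2 UMIs (counted RNA molecules) of Hmga2, a chromatin protein of embryonic tissue, and under 0.2% of UMIs from the immune genes Dock2, Ptprc, Inpp5d, Apbb1ip and Csf1r. The chromosomes were chosen by their counts in tumor glia, which were high against immune nuclei, so their ratios to host nuclei are given as descriptions, without a test.

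The study delivered vectors by in utero electroporation into the ganglionic eminence, the ventral forebrain zone that produces interneurons, of C57BL/6J mouse embryos. Both groups used here overexpress Foxr2, a forkhead transcription factor, from integrating piggyBac vectors with a CAG promoter, which is active in most cell types, and GFP. Foxr2 p53LOF mice also received a Cas9 guide against Trp53, which leads to loss of function of p53, and Foxr2 alone mice did not. The mice were taken when neurologic signs appeared, the label of both groups is brain tumor, and electroporation reaches only some of the progenitors, so each tissue mixes targeted and host cells. RNA and accessible chromatin were read from the same nuclei with the 10x Multiome assay, and 1 library per genotype was analysed here, so no difference between genotypes could be tested against replicates.

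A gained or lost chromosome changes the number of templates for both chromatin fragments and RNA along its whole length, whereas a change of cell state opens and closes single enhancers and promoters. Loss of p53 lets cells with the wrong number of chromosomes go on dividing. Human neuroblastomas of the brain driven by FOXR2 often gain the long arm of chromosome 1, and many genes near the start of that arm lie together on mouse chromosome 3. Accessible chromatin counts depend on cell state as well as on copy number, so the same measure was also taken on peaks that immune and oligodendrocyte nuclei share.

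Chosen peaks of chromosome 3 are shown as 150-base windows from the middle of each peak, read from the plus strand of GRCm38.p6, the assembly behind mm10. The first is the peak of chromosome 3 with most tumor glia counts among those that both host classes use to a like degree, and capitals mark the 104 bases in words also found in peaks of other chromosomes. The other 3 are the peaks of chromosome 3 with the largest excess of tumor glia counts over both immune and oligodendrocyte nuclei, and capitals mark a motif: the E-box CAGCTG, the cyclic AMP response element TGACGTCA and the forkhead core TGTTTA, each searched on both strands.
chr3:5860551-5860700: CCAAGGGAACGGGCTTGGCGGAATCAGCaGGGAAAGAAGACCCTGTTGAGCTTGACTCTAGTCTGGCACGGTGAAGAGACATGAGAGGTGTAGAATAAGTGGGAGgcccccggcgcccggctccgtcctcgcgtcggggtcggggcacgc
chr3:88232490-88232639: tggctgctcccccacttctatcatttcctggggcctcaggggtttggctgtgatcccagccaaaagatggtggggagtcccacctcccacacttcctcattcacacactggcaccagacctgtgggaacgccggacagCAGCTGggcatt
chr3:88214357-88214506: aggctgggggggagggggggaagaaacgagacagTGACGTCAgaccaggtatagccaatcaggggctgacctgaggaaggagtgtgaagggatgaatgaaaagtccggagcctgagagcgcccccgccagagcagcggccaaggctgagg
chr3:53201817-53201966: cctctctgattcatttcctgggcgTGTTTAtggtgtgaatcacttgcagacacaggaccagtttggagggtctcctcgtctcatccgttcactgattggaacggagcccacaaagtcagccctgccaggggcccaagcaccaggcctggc

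The window at chr3:88214357-88214506 lies in Gm3764, a long noncoding RNA gene on the plus strand (88206813 to 88229959), and reaches into its exons. Gm3764 holds the hairpin of miR-9, a microRNA of neural progenitors, at 88215598 to 88215686. RefSeq gives its 2 mature forms as follows, with the seed, bases 2 to 8, in capitals. The assay counts the host transcript and not the mature microRNA.
mmu-miR-9-5p: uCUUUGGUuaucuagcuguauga
mmu-miR-9-3p: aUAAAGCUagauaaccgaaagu

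The window at chr3:88232490-88232639 lies past the end of Gm3764 and in no annotated gene. The window at chr3:53201817-53201966 lies in an intron of Lhfp (53041528 to 53261679, plus strand), and the window at chr3:5860551-5860700 lies in no annotated gene. Of the middle 150 bases of all autosomal peaks, 14.5% held CAGCTG, 0.558% held TGACGTCA and 7.70% held TGTTTA. On chromosome 3 these shares were 13.7%, 0.596% and 8.31%, and on chromosome 18 they were 14.1%, 0.476% and 8.33%, so the members held these letters about as often as other peaks.

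The Foxr2 p53LOF library held 10379 barcodes, 96929539 UMIs and 102529894 peak counts, and 8359 nuclei were kept after filters and doublet removal. Of these, 1301 were tumor glia, 1082 immune and 1396 oligodendrocyte nuclei, with 17176055, 7246468 and 7703414 autosomal peak counts. Hmga2 stood at exactly 2 UMIs in 190 tumor glia, just inside the rule. At least 1 UMI was found in 2024 kept nuclei and at least 2 in 1365, and those with 1 UMI were outside. Of the 1365, 64 were outside by their immune share, and 66 tumor glia had an immune share from 0.1% to 0.2%. The tumor glia had Hmga2 at 1681 CPM, UMIs of a gene scaled to the same total in each class, against 0 in both host classes, whose rule required none, and Foxr2 at 80.7 CPM against 23.7 in immune and 28.3 in oligodendrocyte nuclei. The 97 astrocytes of this library, which by rule had no Hmga2, had Foxr2 at 74.2 CPM and GFP at 542 against 664 in tumor glia, so their transgene RNA was near that of tumor glia and they are not shown to be host cells. Trp53, the guide's target, was at 53.6 CPM against 41.1 and 33.7, and transcript counts do not show whether the protein is lost. Precursor markers summed to 3736 CPM in tumor glia, of which Ptprz1 alone gave 2665, a gene that astrocytes of the same library had at 2191. Of the same list, Sox10 was at 88.1 CPM against 217 in oligodendrocyte nuclei and Olig1 at 29.7 against 82.8, while Pdgfra was at 169 against 36.1. Astrocyte markers summed to 1726, oligodendrocyte markers to 849 (19301 in oligodendrocyte nuclei) and the 5 immune markers to 161 (7575 in immune nuclei), and none of these markers was at 0 in tumor glia. The part of host RNA in the results was not tested. Vector chromatin was found in 30.1% of tumor glia, 0.555% of immune and 1.36% of oligodendrocyte nuclei. The Foxr2 alone library had 1 nucleus that met the rule among 8316, and it served as a source of astrocytes (355 nuclei), which had Foxr2 at 16.2 and GFP at 152 CPM, more than its other classes, and vector chromatin in 0. The libraries shared 140 barcodes, 17 of them tumor glia.

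Chromosome 3 peaks held 5.13% of autosomal peak counts in tumor glia, 4.38% in immune nuclei and 4.801% in oligodendrocyte nuclei. The tumor glia share was 1.17 times that of immune nuclei (95% counting interval 1.17 to 1.18) and 1.07 times that of oligodendrocyte nuclei (1.06 to 1.08). Intervals here are exact under 2 counts per fragment, which was assumed and not checked, and cover counting error only. Chromosome 3 therefore stood second of 19 autosomes against either host class. Neurons of the same library were nuclei with neuron markers and no Hmga2, and 0.691% of them had vector chromatin. The study reported malignant neuron-like cells in its models, so these neurons are not shown to be host cells. Against them the ratio of chromosome 3 was 1.12, the highest of the 19.

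Chromosome 18 peaks held 3.14% of the counts in tumor glia, 2.64% in immune nuclei and 3.06% in oligodendrocyte nuclei. The ratio was 1.19 (1.183 to 1.201) over immune nuclei, the highest of 19 autosomes, and 1.03 (1.02 to 1.04) over oligodendrocyte nuclei, the seventh. Over neurons it was 1.04, again the seventh. The height of chromosome 18 thus appeared against immune nuclei and much less against oligodendrocyte nuclei and neurons. Peaks were also split by whether they lay within 1000 bases of a start span, from a gene's first to its last start site. Such a span can be long, as from 69344146 to 69612444 for Tcf4, so peaks in it can be far from any start. Outside the spans the chromosome 18 ratio was 0.985 over oligodendrocyte nuclei and 0.970 over neurons, under equal shares. In or near the spans it was 1.05 and 1.08. Chromosome 3 stayed above equal shares on both kinds of peak. It was at 1.16 in or near spans and 1.19 outside them over immune nuclei, and at 1.03 and 1.12 over oligodendrocyte nuclei.

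If every tumor glia nucleus had 3 copies where a host nucleus has 2, the share would be 1.47 times the host share for chromosome 3 and 1.48 times for chromosome 18. All observed ratios lay nearer to equal shares than to that value. The value holds only for 3 copies against 2 in every nucleus, and the number of chromosome sets per nucleus was not measured. The 17 other autosomes ranged from 0.808 (chromosome 17) to 1.098 (chromosome 12) over immune nuclei and from 0.892 (chromosome 7) to 1.17 (chromosome 13) over oligodendrocyte nuclei. The counting intervals were far narrower than this spread between chromosomes.

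Classes with no Hmga2 differed from immune nuclei by a like amount on chromosome 18. Its share in oligodendrocyte nuclei was 1.16 times that in immune nuclei in Foxr2 p53LOF (1.15 to 1.17) and also 1.16 times in Foxr2 alone (1.14 to 1.18). In astrocytes of Foxr2 alone it was 1.202 times that in immune nuclei (1.18 to 1.22) and 1.04 times that in oligodendrocyte nuclei. The astrocyte value against immune nuclei was thus as high as that of tumor glia. Peaks were called separately in each library, so ratios were made within a library and set side by side.

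Chromosome 3 differed less between host classes. Oligodendrocyte over immune nuclei gave 1.097 in Foxr2 p53LOF and 1.04 in Foxr2 alone, and astrocytes of Foxr2 alone gave 1.04 over immune nuclei and 0.997 over oligodendrocyte nuclei. Against immune nuclei the tumor glia value of 1.17 was above 1.097 and 1.04, and against oligodendrocyte nuclei their value of 1.07 was above 0.997.

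**Figure D1:**
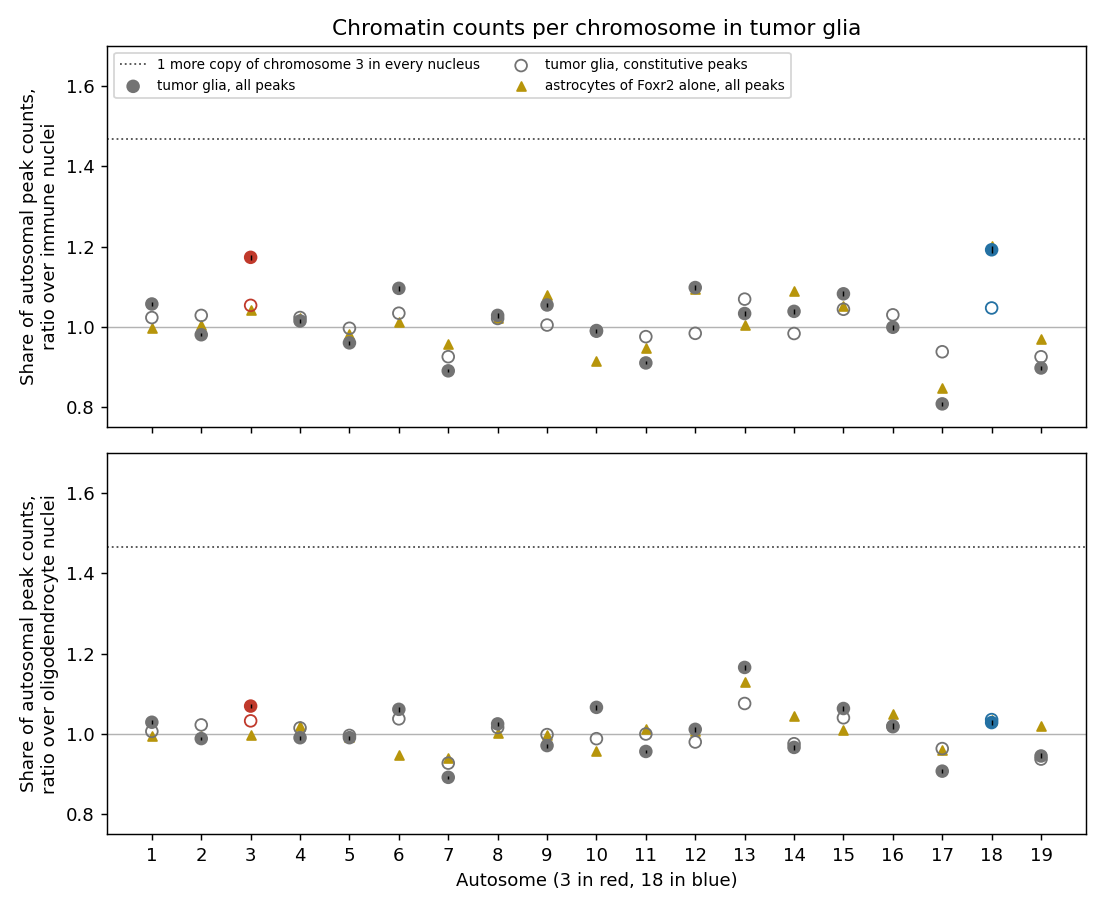
Share of autosomal peak counts per autosome, as a ratio over immune nuclei (top) and over oligodendrocyte nuclei (bottom), for tumor glia on all peaks (filled circles, with 95% counting intervals) and on constitutive peaks (open circles), and for astrocytes of Foxr2 alone (triangles); the dotted line is the ratio for 1 more copy of chromosome 3 in every nucleus. Chromosome 3 (red, 1.17 and 1.07) and chromosome 18 (blue, 1.19 and 1.03) stand well under the dotted line at 1.47 or 1.46, and their open circles lie between 1.03 and 1.05.

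Peaks that both host classes use to a like degree differ less between those classes by choice, and can still differ in tumor glia. Whether they carry less of the tumor glia state was not tested. A peak was called constitutive where its share in oligodendrocyte nuclei was between 0.667 and 1.5 times that in immune nuclei, with at least 50 counts in each, a choice that did not use tumor glia. These were 423 peaks of chromosome 3 (7.002%) and 244 of chromosome 18 (6.45%), against 8.66% of the peaks of other autosomes. On them the chromosome 3 ratio was 1.05 (1.04 to 1.06) over immune and 1.03 (1.02 to 1.04) over oligodendrocyte nuclei. The chromosome 18 ratio was 1.05 (1.03 to 1.06) and 1.04 (1.02 to 1.05). The other autosomes then ranged from 0.925 to 1.07 over immune and from 0.927 to 1.08 over oligodendrocyte nuclei, and both chromosomes lay inside these ranges. The chromosome 3 set includes the peak of the first sequence above, which stood at 0.230 and 0.340 times the host shares. The constitutive ratio of the whole chromosome was not recomputed without that peak, so its place among the autosomes without it is not known. Over neurons the constitutive ratio of chromosome 3 was 1.06 (1.05 to 1.07), the highest of the 19 and outside the range of the others (0.887 to 1.05), and that of chromosome 18 was 1.03, the sixth.

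On chromosome 3 the excess over immune nuclei was 130198 counts, or 17.3%. It was the balance of 3773 peaks at more than 2 times the expected counts, which added 375936, 749 peaks at under 0.5 times, whose sum was -184082, and 1517 peaks between, whose sum was -61656. The peaks above 2 times were 62.5% of chromosome 3, beside 56.3% of all autosomal peaks, and those under 0.5 times were 12.4%, beside 15%. On chromosome 18 the excess was 19.2%, and 2396 peaks (63.4%) were above 2 times and 492 (13.0%) under 0.5 times. The shares on both chromosomes were thus near those of all autosomal peaks. The split used the ratio that it sums, so the signs of its high and low parts were fixed. It had no limit on counts, so peaks with few immune counts enter it. Over oligodendrocyte nuclei the excess was 6.93% on chromosome 3 and 2.82% on chromosome 18.

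Among the 1323 chromosome 3 peaks with at least 50 immune counts, the median ratio of tumor glia over immune nuclei was 0.603, beside 0.587 for 776 peaks of chromosome 18 and 0.560 for 29256 peaks of all autosomes. Of these peaks 4.31%, 5.15% and 3.64% were above 2 times, and 44.3%, 45.9% and 46.1% under 0.5 times. Selecting peaks by host counts favours peaks that are high in the host, so only the difference from all autosomes is of use. Over oligodendrocyte nuclei these medians were 0.730, 0.715 and 0.730. On constitutive peaks the medians over immune nuclei were 0.856 on chromosome 3, 0.811 on chromosome 18 and 0.796 on all autosomes.

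The peaks of chromosomes 3 and 18 resembled other autosomal peaks in width, with medians of 877, 876 and 878 bases for chromosome 3, chromosome 18 and the rest. Peaks in or within 1000 bases of a gene's start span made up 24.9% of chromosome 3, 22.3% of chromosome 18 and 26.3% of the rest. The mean GC content of all peaks was 47.4%, 48.2% and 49.5%. Over 251 autosomal bins the ratio was lower at higher GC content (Pearson's r = -0.45 over immune and -0.42 over oligodendrocyte nuclei, a description, since bins share the same nuclei and libraries). Weighting the host counts by deciles of GC content gave 1.15 and 1.05 for chromosome 3 and 1.18 and 1.01 for chromosome 18.

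The bins varied in level on chromosomes 3 and 18, and also over the other autosomes. On chromosome 3 the 16 bins ran from 0.704 to 1.82 times immune nuclei, with a median of 1.24, and from 0.843 to 1.44 times oligodendrocyte nuclei, with a median of 1.07. On chromosome 18 the 9 bins ran from 0.975 to 1.59 and from 0.860 to 1.28, with medians of 1.23 and 1.04. The 226 bins of the other autosomes ran from 0.562 to 3.02 and from 0.691 to 1.88, with medians of 1.03 and 1.02. Above equal shares over immune nuclei were 14 of 16 bins of chromosome 3, 8 of 9 of chromosome 18 and 127 of 226 others. Over oligodendrocyte nuclei these were 9, 6 and 127. On constitutive peaks they were 14, 7 and 124 of 218 others over immune nuclei, and 13, 7 and 116 over oligodendrocyte nuclei. A bin was counted where its ratio was at least 1.2. Over immune nuclei 9 of 16 bins of chromosome 3 and 6 of 9 of chromosome 18 passed, beside 29.9% of all autosomal bins. Over oligodendrocyte nuclei 3 of 16 and 2 of 9 passed, beside 16.3%. Over both at once 2 of 16 and 2 of 9 passed, beside 8.76%. At a limit of 1.3 over both, 1 and 0 passed, beside 3.19%. On constitutive peaks the bins that passed were 1 on chromosome 3 and 0 on chromosome 18 over immune nuclei, beside 4.12%, the same numbers over oligodendrocyte nuclei, beside 2.47%, and over both, beside 1.65%. In astrocytes of Foxr2 alone 6 of 15 bins of chromosome 3 and 5 of 9 of chromosome 18 passed over immune nuclei, beside 22%, 4 and 2 over oligodendrocyte nuclei, beside 16.9%, and 3 and 2 over both, beside 7.2%. Bins past the limit were thus found on both chromosomes in nuclei with no Hmga2 as well.

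**Figure D2:**
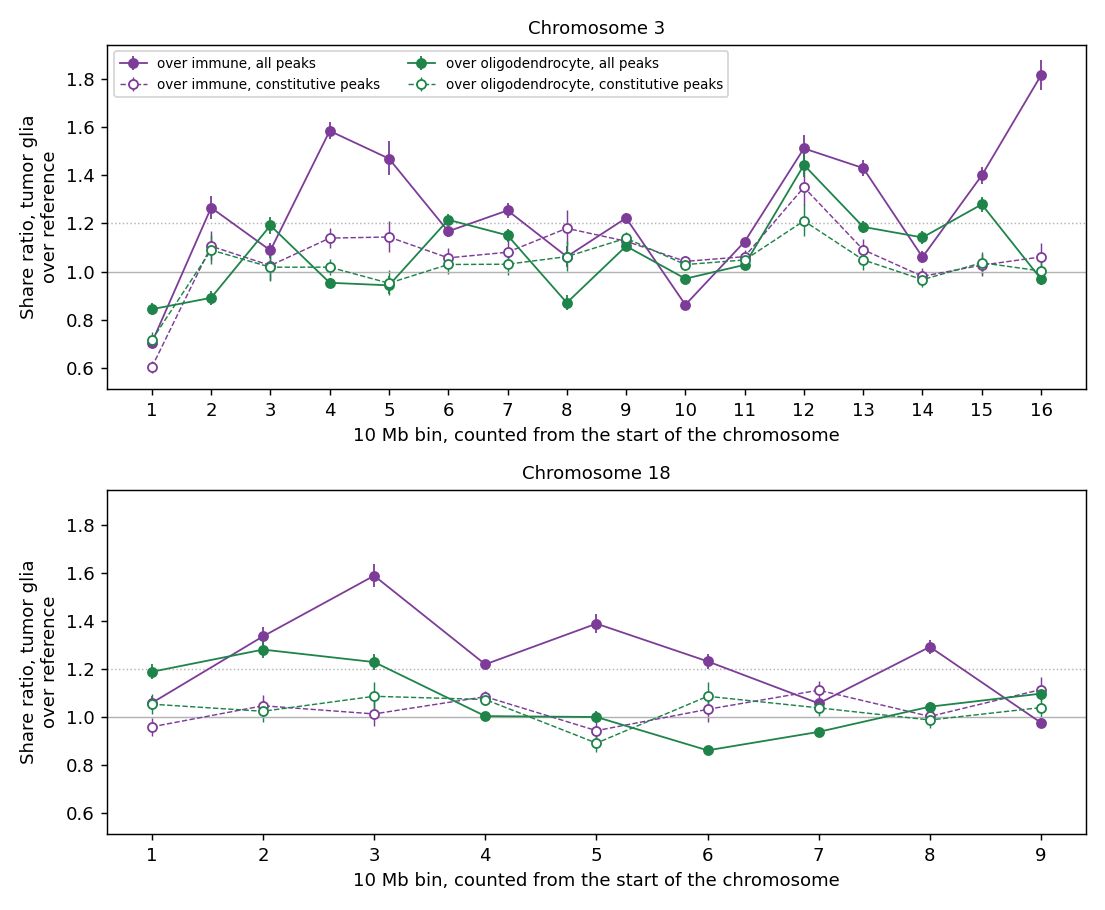
Ratio of tumor glia over immune nuclei (purple) and over oligodendrocyte nuclei (green) in 10 Mb bins counted from the start of chromosome 3 (top) and chromosome 18 (bottom), on all peaks (filled) and on constitutive peaks (open), with 95% counting intervals and the count limit of 1.2 as a dotted line. Bins on all peaks run from 0.704 to 1.82 on chromosome 3, and constitutive values lie between 0.890 and 1.18 except in the bins from 0 to 10 Mb and from 110 to 120 Mb of chromosome 3.

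Among the bins of chromosomes 3 and 18, that from 110 to 120 Mb of chromosome 3 was the most raised over both host classes. By the smaller of its 2 ratios it came after bins of chromosomes 4, 14 and 12. It stood at 1.51 over immune (1.46 to 1.57) and 1.44 over oligodendrocyte nuclei (1.39 to 1.49), and on its 13 constitutive peaks at 1.35 and 1.21. Its bordering bins, 100 to 110 Mb and 120 to 130 Mb, were at 1.06 and 1.09 over immune nuclei on constitutive peaks. The bin from 140 to 150 Mb was at 1.40 and 1.28 on all peaks, and at 1.03 and 1.04 on constitutive peaks. The last bin, from 150 to 160 Mb, was the highest over immune nuclei at 1.82 but stood at 0.969 over oligodendrocyte nuclei.

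On chromosome 18 the bins past 1.2 over both classes were those from 10 to 20 Mb (1.33 and 1.28) and from 20 to 30 Mb (1.59 and 1.23). On constitutive peaks the first was at 1.05 and 1.02 and the second at 1.01 and 1.09. The bins from 60 to 70 Mb (1.06 and 0.937) and from 80 to 90 Mb (0.975 and 1.096) were the lowest by their larger ratio. The highest constitutive value on chromosome 18 was 1.11, in the bin from 80 to 90 Mb over immune nuclei.

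The low value of the first bin of chromosome 3 rested on 1 peak. At 0 to 10 Mb the ratio was 0.704 over immune and 0.843 over oligodendrocyte nuclei, and 0.602 and 0.715 on constitutive peaks. Without the peak at 5860169 to 5861083, whose middle is the first sequence printed above, these values were 0.914 and 1.01, and 1.05 and 1.01. This peak had 2528 tumor glia, 4634 immune and 3333 oligodendrocyte counts, a ratio of 0.230 and 0.340. Words of 25 bases from it recur in peaks of chromosomes 2, 13 and 18. As background, the bases in capitals are those of large subunit ribosomal RNA, although the peak shares no such word with the ribosomal RNA locus annotated on chromosome 17. With 5 peaks that do share words with that locus, the 9 peaks of this kind had ratios from 0.206 to 0.327 over immune nuclei and from 0.149 to 0.461 over oligodendrocyte nuclei.

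The peaks of largest excess lay by genes that were high in tumor glia. The peak around chr3:88214357-88214506 had 740 tumor glia, 8 immune and 53 oligodendrocyte counts, which made ratios of 39.0 and 6.26. The peak around chr3:88232490-88232639 had 698, 25 and 22 counts, with ratios of 11.8 and 14.2. Both flank the miR-9 hairpin of Gm3764, whose RNA was at 677 CPM (counting interval 664 to 691) in tumor glia, 6.85 (4.48 to 10.0) in immune and 12.0 (8.91 to 15.9) in oligodendrocyte nuclei. The peak around chr3:53201817-53201966 had 643, 8 and 10 counts, with ratios of 33.9 and 28.8. It lies in Lhfp, a membrane protein gene at 547 CPM in tumor glia, 11.9 in immune and 20.9 in oligodendrocyte nuclei.

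The log2 ratio of each gene, on CPM plus 1, was taken over genes with at least 10 CPM in both host classes, a filter that did not use tumor glia. For 390 genes of chromosome 3 the median was 0.12 over immune and 0.27 over oligodendrocyte nuclei, which was 0.07 and 0.05 above the median of all autosomal genes. For 204 genes of chromosome 18 it was 0.09 and 0.35, or 0.04 and 0.13 above. The other autosomes lay from -0.12 to 0.14 over immune and from -0.13 to 0.09 over oligodendrocyte nuclei on the same scale. Chromosome 3 ranked 4 and 6 among 19 and chromosome 18 ranked 6 and 1, so chromosome 18 lay outside the others over oligodendrocyte nuclei. Its 0.13 fell to 0.06 with vector chromatin in place of Hmga2 and to 0.05 without the filter on low genes, settings under which the other autosomes were not computed. Over neurons chromosome 3 was 0.17 above all genes, the highest of the 19, and chromosome 18 was at -0.01. Summed RNA, in which high genes weigh most, gave chromosome 3 a ratio of 1.18 over immune and 1.05 over oligodendrocyte nuclei (ranks 4 and 9). It gave chromosome 18 ratios of 1.31 and 1.24, which ranked 1 and 2.

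RNA and chromatin of the raised bins differed in part. In the bin from 110 to 120 Mb of chromosome 3, 21 genes had a median 0.23 above all autosomal genes over immune nuclei and 0.01 over oligodendrocyte nuclei. In the bin from 140 to 150 Mb, 21 genes were at 0.45 and 0.33. The bin from 120 to 130 Mb had the highest RNA of chromosome 3, at 0.49 and 0.57 for 18 genes, with chromatin ratios of 1.43 and 1.19. On chromosome 18 the bin from 10 to 20 Mb was at 0.12 and 0.31 for 19 genes, and the bin from 20 to 30 Mb was at 0.24 and 0.26 for 15 genes.

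Single genes differed far more than the chromosomes did. A gene was counted as measured with at least 10 CPM in tumor glia or in both host classes, and as higher or lower where it differed at least 2-fold from both host classes. Of 535 measured genes of chromosome 3, 89 were higher and 8 lower, and of 304 of chromosome 18, 66 were higher and 8 lower, beside 14.6% higher and 2.23% lower of all 9735 measured autosomal genes. Genes measured only through their tumor glia level (145 and 100) could hardly be lower. Such genes also enter the medians given below for gene lists and for all genes, which were not taken without them. Among genes measured in both host classes, 30 of 390 and 20 of 204 were higher and 8 and 8 lower, beside 6.23% higher and 2.97% lower of 7301.

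The highest genes of chromosome 3 after Gm3764 were Plch1, a phospholipase C, Bmpr1b, a bone morphogenetic protein receptor, Lrrc7, a postsynaptic scaffold protein, and Syt6, a synaptotagmin. Bmpr1b was at 213 CPM (205 to 220) against 4.22 (2.41 to 6.85) in immune and 4.92 (3.00 to 7.59) in oligodendrocyte nuclei. Plch1 was at 345 CPM against 5.54 and 6.64, and Syt6 at 155 against 2.11 and 3.44. Lrrc7 was at 1130 CPM against 27.9 and 30.7, but neurons of the library had 1039. The lowest were Wls, which carries Wnt proteins out of the cell, Pld1, a phospholipase D, Rnf13, a ubiquitin ligase, Dram2, a lysosomal protein, and Sass6, a centriole protein. Wls was at 27.1 CPM against 176 and 175.

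The highest genes of chromosome 18 were Fbn2, Myo5b, Stk32a, Mapk4 and Kctd1. Fbn2, which encodes the matrix protein fibrillin-2, was at 1290 CPM (1271 to 1309) against 11.9 (8.65 to 15.9) and 40.6 (34.6 to 47.2). Stk32a, a kinase gene, was at 174 CPM against 6.85 and 4.18, and Myo5b, a myosin motor, at 118 against 3.43 and 2.46. The lowest were Trim36, Bin1, Smad7, Gm44577 and Cyb5a. Bin1, a protein that bends membranes, was at 65.3 CPM against 248 in immune and 730 in oligodendrocyte nuclei.

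Genes whose human orthologs lie on the long arm of human chromosome 1 were taken as a list of 25, all of which lie on mouse chromosome 3. Of 20 that were measured, 4 were higher and 0 lower, beside 14.6% and 2.23% of all measured autosomal genes, with medians of 0.22 over immune and 0.51 over oligodendrocyte nuclei beside 0.23 and 0.39 for all. Of the 18 measured in both host classes, 3 were higher, beside 6.23%. This list and those below were chosen with earlier results of these data known, so their counts are descriptions only. Nes, the intermediate filament of neural progenitors, was at 106 CPM (101 to 112) against 16.1 (12.3 to 20.7) and 14.7 (11.3 to 18.98). Lmna, a nuclear lamina gene, was at 106 CPM against 18.98 and 23.6, Cct3, a chaperonin subunit, at 109 against 49.3 and 45.0, and Bcan, a proteoglycan of the brain matrix, at 83.3 against 7.91 and 40.6. Mcl1, which blocks cell death and lies in this region in both species, was at 86.4 CPM against 209 and 51.9. Setdb1, a histone methyltransferase, was at 119 CPM against 109 and 91.9. The bins that hold these genes, 80 to 90 Mb and 90 to 100 Mb, had chromatin ratios of 1.22 and 1.11, and of 0.862 and 0.970.

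Growth signaling genes of chromosome 3 numbered 16, of which 14 were measured, 2 were higher and 0 lower, beside 14.6% and 2.23% of all, with medians of 0.76 and 0.92 beside 0.23 and 0.39. Of the 11 measured in both host classes, 1 was higher, beside 6.23%. The medians also count 3 genes measured only through their tumor glia level, Bmpr1b, Fgf2 and Egf. Over immune nuclei Egf and Fgf2, at 0.73 and 0.79, lay on either side of the median, so its height rests on that filter. The higher genes were Bmpr1b and Vav3, which was at 2050 CPM against 244 and 58.7. Nras, a RAS family gene, was at 101 CPM against 51.9 and 42.03, and Sox2, a stem cell transcription factor, at 186 against 25.04 and 166. Notch2, a Notch receptor, was at 37.6 CPM against 214 and 21.4.

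**Figure D3:**
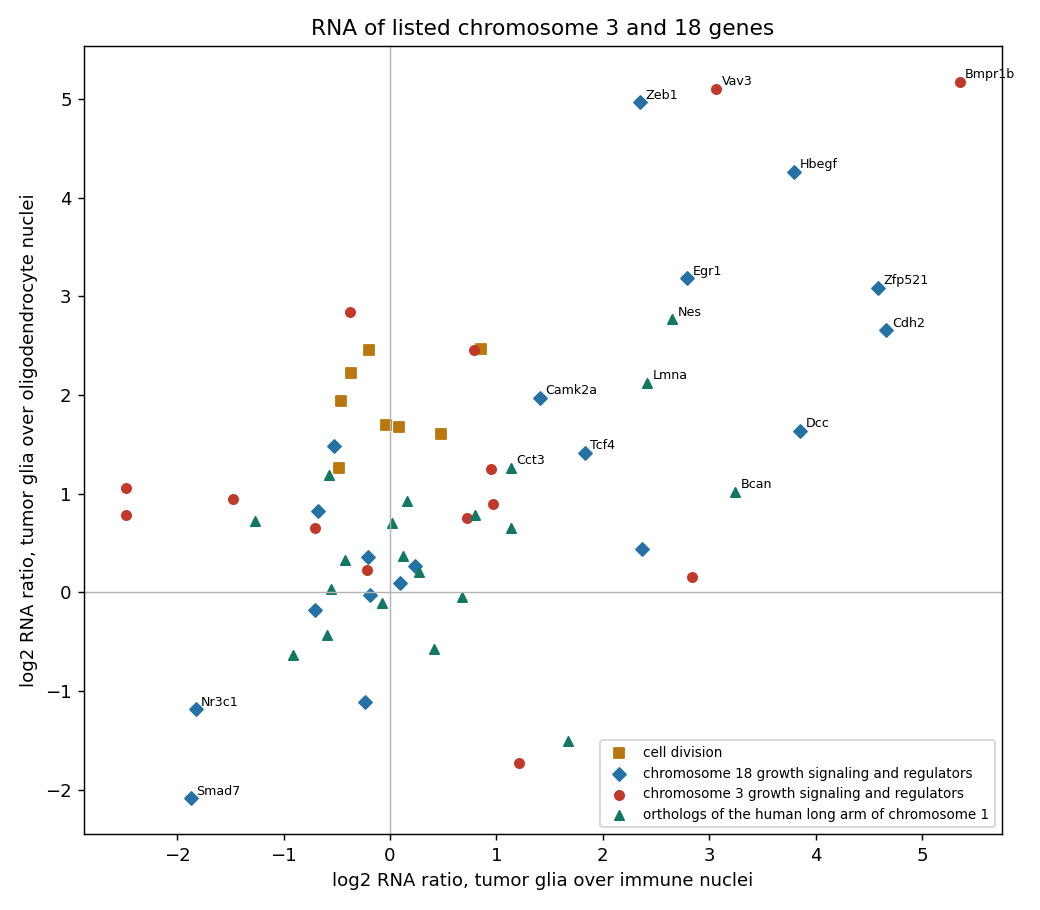
Log2 ratio of RNA (CPM plus 1) in tumor glia over immune nuclei (horizontal) and over oligodendrocyte nuclei (vertical) for the measured genes of the 4 lists of chromosomes 3 and 18, 1 point per gene and list. Genes at least 2-fold from both host classes are named; Bmpr1b (5.35 and 5.17) is farthest up, Smad7 (-1.87 and -2.09) farthest down, and the cell division genes are high over oligodendrocyte nuclei with values from -0.48 to 0.85 over immune nuclei.

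The list of chromosome 18 held 22 genes, of which 19 were measured, 8 were higher and 2 lower, beside 14.6% and 2.23% of all, with medians of 0.23 and 0.82 beside 0.23 and 0.39. Of the 17 measured in both host classes, 6 were higher and 2 lower, beside 6.23% and 2.97%. All chromosome 18 genes measured in both gave 20 of 204 higher and 8 lower. The list was chosen with earlier results of these data known, so its excess over these shares was not tested. Among the transcription factors, Zeb1 was at 1606 CPM against 314 and 50.4, Zfp521 at 314 against 12.1 and 36.1, and Tcf4 at 3223 against 904 and 1212. Cdh2, the adhesion protein N-cadherin, was at 653 CPM against 24.8 and 103, and Hbegf, a ligand of the EGF receptor, at 93.8 against 5.80 and 3.93. Dcc, a netrin receptor, was at 1077 CPM against 73.5 and 345, but neurons of the library had 1892. Egr1, an early response gene, was at 160 CPM against 22.1 and 16.7. Camk2a, a kinase of neurons, also counted as higher at 13.5 CPM against 4.48 and 2.70, while neurons had 124.

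The lower genes of chromosome 18 were Smad7 and Nr3c1. Smad7, an inhibitor of TGF-beta signaling, was at 41.0 CPM (37.7 to 44.5) against 153 (140 to 166) and 178 (165 to 191). Nr3c1, the glucocorticoid receptor, was at 93.2 CPM against 333 and 214. The other Smad genes on this chromosome, Smad2 and Smad4, which pass the TGF-beta signal to the nucleus, were at 88.0 and 154 CPM, against 127 and 178 in immune and 31.0 and 120 in oligodendrocyte nuclei. Apc, which restrains Wnt signaling, was at 484 CPM against 411 and 403.

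Of 10 cell division genes on the 2 chromosomes, 8 were measured, 4 of them only through their tumor glia level. Of these 0 were 2-fold from both host classes, beside 14.6% higher and 2.23% lower of all genes, with medians of -0.12 over immune and 1.82 over oligodendrocyte nuclei. Smc4, a condensin subunit, was at 185 CPM against 190 and 56.3. Mki67 or Top2a, which mark dividing cells, had a UMI in 38.5% of tumor glia, 21.0% of immune and 6.09% of oligodendrocyte nuclei. Median UMIs per nucleus were 9263, 2642.5 and 2479, so these shares also reflect depth.

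A sum over nuclei cannot tell a small change in all nuclei from a gain in some, so shares were also taken per nucleus, thinned to 2000 autosomal peak counts. Chromosome 3 held a median of 5.10% in 1186 tumor glia (quartiles 4.70% and 5.60%), 4.35% in 956 immune and 4.75% in 1246 oligodendrocyte nuclei. In the 90 astrocytes of the same library it held 4.925%, nearer to tumor glia than immune and oligodendrocyte nuclei were, and 7.22% of the astrocytes had vector chromatin. Shallower tumor glia, immune and oligodendrocyte nuclei, 115, 126 and 150, were left out, and unthinned medians were 5.12%, 4.37% and 4.78%. The SD of the thinned chromosome 3 share was 0.858 percentage points in tumor glia, 0.631 in immune, 0.626 in oligodendrocyte, 0.565 in neuron and 0.478 in astrocyte nuclei of the library. A formula for counting error that keeps both counts of each fragment gave 0.699, 0.647, 0.676, 0.662 and 0.683. Thinning drew single counts and so split many fragments, which makes these values too high, most so in deep nuclei. The SDs of all classes but tumor glia lay under them. How far the tumor glia SD exceeds counting error is therefore not known. The tumor glia include 1 nucleus far above the rest, at 9.79 on the scale of the calls below, which raises their SD. Chromosome 18 held 3.10% in tumor glia (2.75% and 3.50%), 2.60% in immune and 3.05% in oligodendrocyte nuclei. Its SD was 0.582 in tumor glia, 0.490 in immune, 0.496 in oligodendrocyte, 0.457 in neuron and 0.482 in astrocyte nuclei. The same formula, too high for the same reason, gave 0.551, 0.506, 0.545, 0.540 and 0.539.

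The upper part of the immune distribution was exceeded by many tumor glia. On chromosome 3, 401 of 1186 (33.8%, exact interval 31.1% to 36.6%) lay above the 95th percentile of immune nuclei, and 138 (11.6%, 9.87% to 13.6%) above that of oligodendrocyte nuclei. On chromosome 18 these were 340 (28.7%) and 79 (6.66%, 5.31% to 8.23%). Host oligodendrocyte nuclei exceeded the immune limit in 14.8% on chromosome 3 and 21.8% on chromosome 18. Astrocytes of Foxr2 alone exceeded their immune limit in 7.72% on chromosome 3 and in 31.5% on chromosome 18, and neurons of Foxr2 alone in 31.9% on chromosome 18. In astrocytes of Foxr2 p53LOF these were 14.4% and 18.9%. On chromosome 18 the other classes thus lay on both sides of tumor glia.

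**Figure D4:**
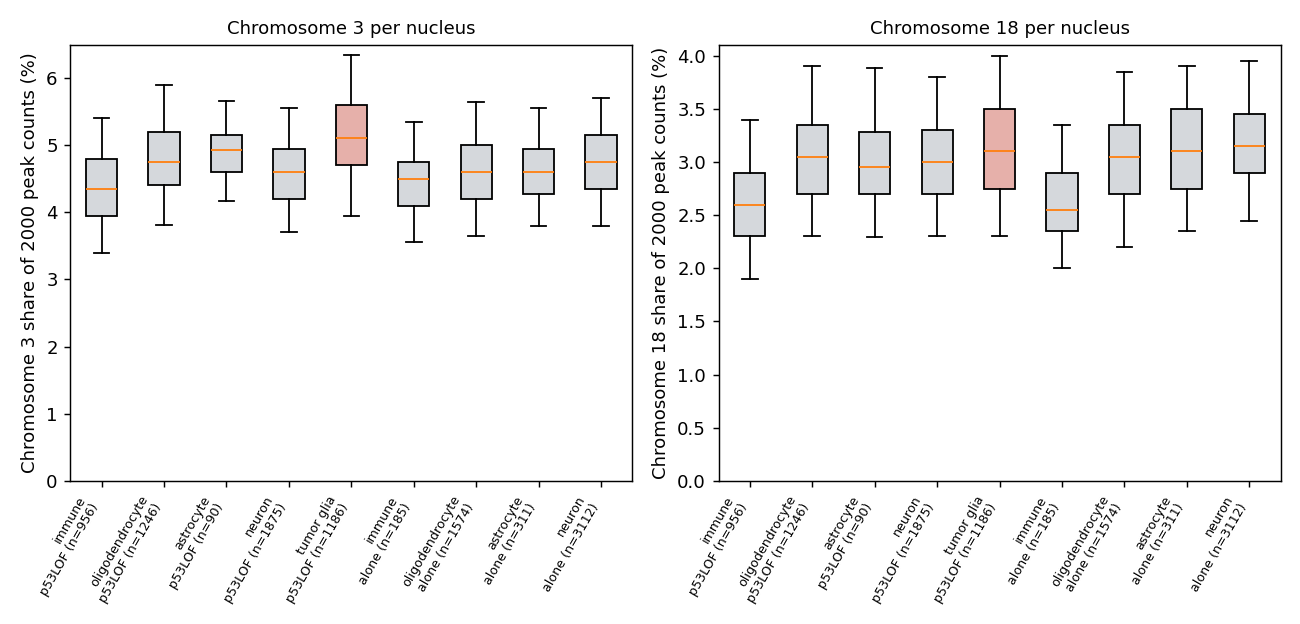
Share of chromosome 3 (left) and chromosome 18 (right) in each nucleus thinned to 2000 autosomal peak counts, for 9 classes of nuclei of both libraries; boxes are quartiles, lines the medians and whiskers the 5th and 95th percentiles. Tumor glia (red) have the highest chromosome 3 median, 5.10%, while on chromosome 18 their median of 3.10% is like that of other brain cells and immune nuclei are lowest.

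Nuclei with a high or low share of a chromosome were then called one by one. The calls rest on share limits alone, and barcodes lacking a whole autosome, given under other observations, were not removed. In nuclei with at least 5000 autosomal peak counts, the share of each chromosome was divided by the median of its own class and then by the median of the 19 values so obtained in the same nucleus, so a value of 1 is the middle autosome of that nucleus, and values above 1.3 were called high and below 0.7 low. Of 1020 tumor glia, chromosome 3 was high in 14 (1.37%, exact interval 0.752% to 2.29%) and low in 12 (1.18%, 0.609% to 2.05%). Chromosome 18 was high in 19 (1.86%, 1.13% to 2.89%) and low in 16 (1.57%, 0.899% to 2.53%). In 632 immune nuclei chromosome 3 was high in 2 and low in 4, and in 795 oligodendrocyte nuclei it was high in 1 and low in 2. Chromosome 18, which has fewer counts, was high in 9 and low in 7 immune nuclei and high in 6 and low in 2 oligodendrocyte nuclei. Dividing by the class median hides a gain that most tumor glia share.

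Other chromosomes were called more often in tumor glia. The share of high calls ran from 0.784% (chromosome 7) to 6.76% (chromosome 5) and that of low calls from 0.980% (chromosome 10) to 9.22% (chromosome 5). Chromosome 3 ranked 13 of 19 for high and 17 for low calls, and chromosome 18 ranked 10 and 13. At least 1 autosome was called in 440 of 1020 tumor glia, 69 of 632 immune, 85 of 795 oligodendrocyte and 90 of 1539 neuron nuclei. The tumor glia were deeper, with a median of 13763 counts in the 1020 nuclei that could be called against 6968 in immune and 6564 in oligodendrocyte nuclei.

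RNA was not used for these calls and lay on the same side in nearly all of the called tumor glia. RNA of chromosome 3, with each gene held to 2 UMIs per nucleus and scaled in the same 2 steps, had a median of 1.2001 (1.11 to 5.99) in the 14 high nuclei and was above 1 in 14 of 14. In the 12 low nuclei its median was 0.676 (0.032 to 0.861), and it was below 1 in 12 of 12. For chromosome 18 the RNA was at 1.13 in the 19 high nuclei, above 1 in 19 of 19, and at 0.742 in the 16 low nuclei, below 1 in 15. In the immune nuclei called for chromosome 3, RNA was above 1 in 0 of 2 high and below 1 in 4 of 4 low nuclei. It was on the side of the call in 3 of 3 high and 1 of 1 low neurons and in 1 of 1 high and 1 of 2 low oligodendrocyte nuclei. For chromosome 18 it was on that side in 7 of 9 high and 5 of 7 low immune nuclei, 3 of 5 and 3 of 4 neurons, and 3 of 6 and 1 of 2 oligodendrocyte nuclei.

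**Figure D5:**
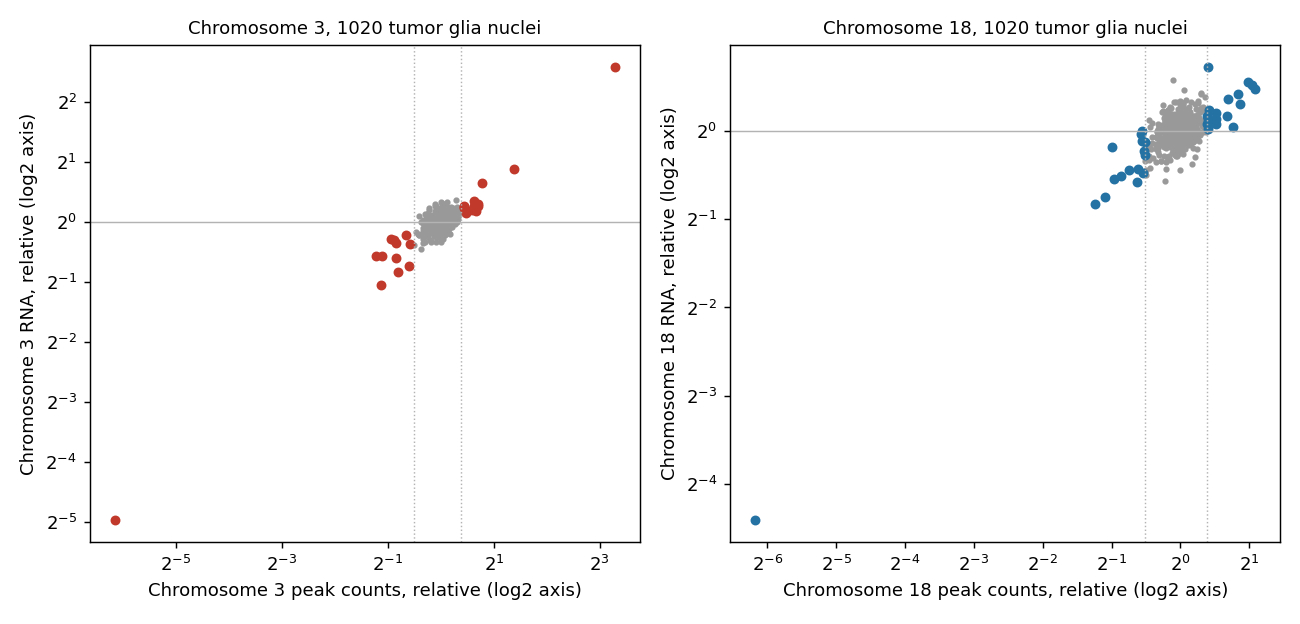
Peak counts (horizontal) and RNA (vertical) of chromosome 3 (left) and chromosome 18 (right) in 1020 tumor glia nuclei, each relative to the class median and then to the middle autosome of the nucleus, on log2 axes; dotted lines mark the call limits of 0.7 and 1.3 and colored points are called nuclei. Called nuclei lie on the same side for RNA and chromatin except 1 low nucleus of chromosome 18 with RNA at 1, and 1 nucleus stands apart at 9.79 for chromosome 3 chromatin and 5.99 for its RNA.

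Across the 1020 tumor glia, Spearman's correlation between chromatin and RNA was 0.335 for chromosome 3 and 0.286 for chromosome 18, within the range of the other autosomes (0.188 to 0.641). In the 964 nuclei with fewer than 5 autosomes called it was 0.268 and 0.221. In immune nuclei it was 0.052 and 0.009, and in oligodendrocyte nuclei 0.029 and 0.036. These are descriptions over nuclei of 1 library that share depth. The chromatin of chromosomes 3 and 18 varied apart from each other, with a Spearman's correlation of 0.022.

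Called nuclei usually had other chromosomes called too. All 14 high and all 12 low nuclei of chromosome 3 had another autosome called, with medians of 4.5 and 6 others. Fewer than 5 autosomes were called in 5 of the 14 and 4 of the 12. On chromosome 18, 17 of 19 high and 13 of 16 low nuclei did. Conversely, in nuclei called for the chromosomes called most often, chromosomes 3 and 18 were near 1 on this scale: in the 94 nuclei low for chromosome 5 they were at 1.01 and 1.02, and in the 90 nuclei low for chromosome 7 at 1.004 and 1.04. Chromosomes 3 and 18 were both high in 2 nuclei and both low in 3.

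Each side of chromosomes 3 and 18 was also read on its own by the same limits, in all 1020 tumor glia, called or not. With each chromosome split at the middle of its counts (90.5 Mb on chromosome 3 and 47.3 Mb on chromosome 18), 12 tumor glia were high on both sides of chromosome 3, 0 on the first side only and 6 on the second only, with the other side at no more than 1.1. For low values, with the other side at 0.9 or more, these were 11, 1 and 2. In oligodendrocyte nuclei 0 were high on both sides, 6 on the first and 6 on the second. On chromosome 18, 13 tumor glia were high on both sides, 14 on the first and 10 on the second only. This compares with 3, 22 and 20 of the 795 oligodendrocyte, 4, 14 and 19 of the 632 immune and 3, 21 and 17 of the 1539 neuron nuclei, so high values on a single side were found in each of these classes.

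The chromosome sums differed little between tumor glia parts split by marker or division genes, and chromosome 3 differed more by Hmga2. The 999 nuclei with more precursor than astrocyte marker RNA had a chromosome 3 ratio of 1.17 over immune and 1.07 over oligodendrocyte nuclei, and the 302 others had 1.17 and 1.06. The 501 nuclei with Mki67 or Top2a had 1.17 and 1.07, the same as the 800 without. At the edge of the rule, the 190 nuclei with 2 UMIs of Hmga2 were at 1.136 (1.125 to 1.147) and 1.035 (1.025 to 1.045). The 646 with at least 10 UMIs were at 1.184 (1.177 to 1.192) and 1.079 (1.073 to 1.086). Between them, 3 to 4 UMIs gave 1.176 and 1.072, and 5 to 9 UMIs gave 1.168 and 1.065. The ratio thus did not rise at each step. RNA of chromosome 3 relative to all genes was 0.066, 0.118, 0.056 and 0.056 over immune nuclei, from fewest to most UMIs. Over oligodendrocyte nuclei it was 0.042, 0.057, 0.051 and 0.016. Hmga2 UMIs also set the rule, and the intervals cover counting error only. The chromosome 18 ratio ran from 1.168 to 1.202 over immune and from 1.01 to 1.04 over oligodendrocyte nuclei across these parts and those with and without vector chromatin.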

How the data were processed

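Nuclei of 2 mouse libraries, Foxr2 p53LOF replicate 1 and Foxr2 alone replicate 1, were analysed, and Foxr2 alone replicate 2 was not used here. The deposited values are raw counts: UMIs for genes and transposition counts for peaks, by barcode. The authors obtained these counts with Cell Ranger ARC 2.0.0 at default settings on mm10 plus vector chromosomes, called cells and peaks library by library, and applied no normalization.

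Nuclei were kept with at most 5% mitochondrial UMIs, at least 400 genes and 400 fragments (peak counts divided by 2), and under the upper limits of the study per library. The study's limits on start site enrichment and nucleosome signal were left out, since they require fragments. Doublets were removed with Scrublet in scanpy 1.11.5 at an expected rate of 8% (353 and 540 nuclei). Immune and neuron nuclei had at least 0.5%, and oligodendrocyte and astrocyte nuclei at least 1%, of UMIs from the markers of 1 class only, and no Hmga2. Counts were summed per class, and bins needed at least 1000 counts in the host class. Genes were placed by the middle of their start span, and Hmga2 and the immune and oligodendrocyte markers were left out of RNA medians. Sequences come from GRCm38.p6, whose coordinates equal those of mm10. The largest excess over both host classes, the 5 highest and lowest genes per chromosome and 4 gene lists decided what was named. Members and lists were chosen with earlier results of these data known. With 1 library per genotype no test was made, and 95% intervals cover counting error only. The ratio of shares was tested on simulated gains with known answers. Python 3.11.15, numpy 2.4.6, scipy 1.17.1 and pandas 2.3.3 were used. Alternatives changed the tumor and host definitions, doublets, filters, denominator, peak sets, bin size, fold, pseudocount and gene filter.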

Additional observations from a re-analysis of the deposited data

How the results depend on the processing

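No paired analysis was possible because 1 library per genotype was analysed and no result comes from a test. Over immune nuclei, chromosome 3 moved to 1.05 on constitutive peaks, 1.16 with nuclei weighted equally, 1.18 with host marker limits doubled (155 immune and 670 oligodendrocyte nuclei) and 1.19 with counts outside both chromosomes as denominator, and chromosome 18 to 1.05 on constitutive peaks and 1.21 with that denominator. Over oligodendrocyte nuclei constitutive peaks gave 1.03 and 1.04. Bins past the fold over both host classes numbered 1 and 0 on constitutive peaks, 8 on chromosome 3 with 5 Mb bins (8 of 28, beside 13.6% of all) and 1 and 0 at a fold of 1.3 (beside 3.19%). Without a filter on low genes, the RNA median over immune nuclei was 0.22 on chromosome 3 and 0.39 on chromosome 18. Chosen after seeing the data, matching on GC content gave 1.15 and 1.05 for chromosome 3 and 1.18 and 1.01 for chromosome 18, and leaving out the ribosomal RNA-like peaks gave 1.18 for chromosome 3 over immune nuclei. Distal peaks (over 1000 bases from any gene's start span) and promoter peaks (the others) were also chosen after seeing the data. Distal peaks turned chromosome 18 over oligodendrocyte nuclei to 0.985, under equal shares, and over neurons from 1.04 to 0.970. They moved chromosome 3 to 1.19 and 1.12. Promoter peaks gave 1.16 and 1.03 for chromosome 3 and 1.16 and 1.05 for chromosome 18. Relative to all genes, the RNA median of chromosome 18 over oligodendrocyte nuclei fell from 0.13 to 0.06 with vector chromatin in place of Hmga2 and to 0.05 without the filter, and over immune nuclei it ran from 0.01 with doubled host limits to 0.25 without the filter, around 0.04. That of chromosome 3 ran from 0.01 to 0.08 over oligodendrocyte nuclei, around 0.05. The cause of these moves was not tested. The other 91 alternatives stayed within the counting interval or 1.5 times the count, where RNA medians are read before subtracting that of all genes. Depth limits calls per nucleus to changes of about a whole copy, and chromosome 18 more than chromosome 3.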

Other observations

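Some barcodes held almost none of the peak counts of a whole chromosome. In Foxr2 p53LOF, 76 of 8183 kept barcodes with at least 1000 autosomal peak counts (0.929%, exact interval 0.732% to 1.16%) had under 0.1 of the expected counts of at least 1 autosome, against 4 of 8150 in Foxr2 alone (0.0491%, 0.0134% to 0.126%). Of the 76, 34 lacked at least 5 autosomes, 12 lacked at least 10, and the largest number was 17. Chromosome 3 was lacking in 15, where the median of its RNA was 0.243 times the expected level, and chromosome 18 in 22, with RNA at 0.217 times. Both were lacking in 8. Of tumor glia 16 of 1280 were such barcodes, of immune nuclei 8 of 1052 and of oligodendrocyte nuclei 1 of 1368. Without them, the ratios of chromosomes 3 and 18 in tumor glia over immune and over oligodendrocyte nuclei, on all peaks, stayed within their counting intervals, and no other ratio was recomputed. The difference between the libraries was not tested, since 1 library per genotype was analysed here.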
